A study of Mus musculus with 24 samples.

Results

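Forelimbs of mouse embryos that carried 1 working copy of Rps6 in the limb mesenchyme and no Trp53, called double mutant limbs here, were compared with limbs that kept both genes. The comparison used 12 of the 24 libraries of the series, chosen by genotype label: 6 libraries of total RNA and 6 of ribosome-protected fragments (RPF, or footprints), with 3 of each genotype in each kind. It asked how far the RNA, the footprints and their difference in double mutant limbs lay from those of control limbs.

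The product of Rps6 is part of the small ribosomal subunit. When a cell makes too little of a ribosomal protein, assembly of the ribosome is disturbed, and free ribosomal proteins can bind Mdm2, the ubiquitin ligase that keeps p53 low. p53, the product of Trp53, is a transcription factor that then raises genes of cell cycle arrest and cell death, so its removal takes away a branch of the response and leaves the shortage of the subunit itself. In ribosome profiling, the RNA stretches covered by ribosomes are sequenced beside the RNA of the same lysate. The change in footprints minus the change in RNA, on the log2 scale, is called the change in translational efficiency (TE).

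The controls, Rps6 WT, Trp53 WT, had the genotype Rps6lox/+;Trp53+/+, with a floxed Rps6 allele and no Cre. The double mutants, Rps6 het, Trp53 null, had the genotype Prx1Cre;Rps6lox/+;Trp53-/-. Both other genotypes of the series served for reference: Rps6 het, Trp53 WT (Prx1Cre;Rps6lox/+;Trp53+/+) and Rps6 WT, Trp53 null (Rps6lox/+;Trp53-/-). All 4 genotypes carried 1 floxed Rps6 allele, and Cre was present in the Rps6 het genotypes alone, so an effect of the Cre transgene cannot be told apart from that of the Rps6 deletion. Prx1Cre acts in the limb bud mesenchyme, so ectoderm, vessels and blood of the same limbs should keep both Rps6 copies, whereas Trp53 was absent from the whole embryo. Embryos came from crosses of Prx1Cre with Rps6lox/lox;Trp53+/- mice and were taken at E10.5, and each replicate pooled material of 2 embryos of a genotype. In such bulk samples, fewer cells of a type and less RNA per cell cannot be told apart.

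Total counts were 19847588 to 26317954 in the control RNA libraries and 18610294 to 29104669 in the double mutant ones. RPF libraries held 8939697 to 16835045 counts in controls and 9935362 to 12014898 in double mutants. Levels are given as CPM, counts scaled to a common library total, and 3 counts correspond to 0.103 to 0.161 CPM in RNA libraries and 0.178 to 0.336 CPM in RPF libraries, which covers counting error only. The table lists versioned Ensembl transcript IDs, of which 0 were matched to gene names in the tables used here. The levels of Rps6 and Trp53 themselves, cell type markers and lists such as p53 targets or ribosomal proteins were therefore not examined by name. Transcripts given below by ID may include those of Rps6 or Trp53, which was not checked. Reads of a transcript may come in part from a paralog, a pseudogene or a gene that overlaps it. All values are relative to the library, so a fall in the footprints of all transcripts together would not be seen.

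One library stood apart from its group. Between libraries, the median absolute difference in log2 CPM was 0.0834 among control RNA libraries (0.081 to 0.0896, 3 pairs). It was 0.118 among double mutant RNA libraries (0.0903 to 0.12, 3 pairs) and 0.114 between the genotypes (0.0902 to 0.124, 9 pairs). Double mutant replicate 3 was 0.118 and 0.12 from the other double mutant pools in RNA, but 0.0902 to 0.0964 from the 3 controls. Its footprints did not stand apart, at 0.092 and 0.109 from the other double mutant pools. In RPF, the distance was 0.0958 among controls (0.0941 to 0.0965), 0.109 among double mutants (0.092 to 0.109) and 0.11 between the genotypes (0.103 to 0.127). For scale, the distance from controls to Rps6 het, Trp53 WT limbs was 0.161 in RNA (0.145 to 0.178) and 0.167 in RPF (0.139 to 0.182). With replicate 3 left out, the double mutant RNA libraries were 0.0903 apart and 0.101 to 0.124 from the controls, so the overlap of distances within and between genotypes in RNA rests on that replicate. Counts of calls against control and list medians are also given without double mutant replicate 3. Calls against the other genotypes are given with all libraries only. So are results built on the RNA calls, such as their overlap with RPF calls and their place on lists.

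Few RNAs differed between double mutant and control limbs. Of 14411 transcripts tested, 26 passed an adjusted p of 0.05 in the quasi-likelihood test of edgeR (0.18%). In double mutants 10 of them were higher (0.0694%) and 16 lower (0.111%). The unadjusted p was under 0.05 for 1462. The levels of all 26 had no overlap between the 3 control and the 3 double mutant libraries, as had 2106 of all transcripts tested (14.6%). Over all transcripts the median absolute change was 0.08 on the log2 scale and the 95th percentile 0.41. The 26 changed by a median of 0.62, the smallest by 0.24, and 9 by more than 1 (2 higher, 7 lower). Against the same controls, Rps6 het, Trp53 WT limbs had 3580 transcripts past the threshold (24.8%), 1892 higher and 1688 lower, with a median absolute change of 0.15 over all transcripts and a 95th percentile of 0.69. Double mutant and Rps6 het, Trp53 WT limbs, compared directly, differed in 1919 transcripts (13.3%).

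The count of 26 depended on single libraries. Without double mutant replicate 3 it was 117 (67 higher, 50 lower). Without double mutant replicate 1 or 2 it was 11 or 10, and without control replicate 1, 2 or 3 it was 13, 13 or 16.

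A missed threshold does not show that levels were alike, so the 95% interval of each change was also set against fixed bounds. The interval lay wholly within 0.5 on the log2 scale in either direction for 11021 of the 14411 transcripts (76.48%) and within 1 for 13521 (93.82%). In Rps6 het, Trp53 WT limbs the share within 0.5 was 65.93%. Depth set much of this: with transcripts split by mean level into 4 classes of equal size, 18.8% of intervals lay within 0.5 in the lowest class (0.208 to 3.93 CPM), with a median standard error of 0.248. In the other classes, from low to high, the shares were 90.8%, 98.5% and 97.8%. For the weakly expressed class, a difference of moderate size was thus mostly not detectable at this depth.

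**Figure D1:**
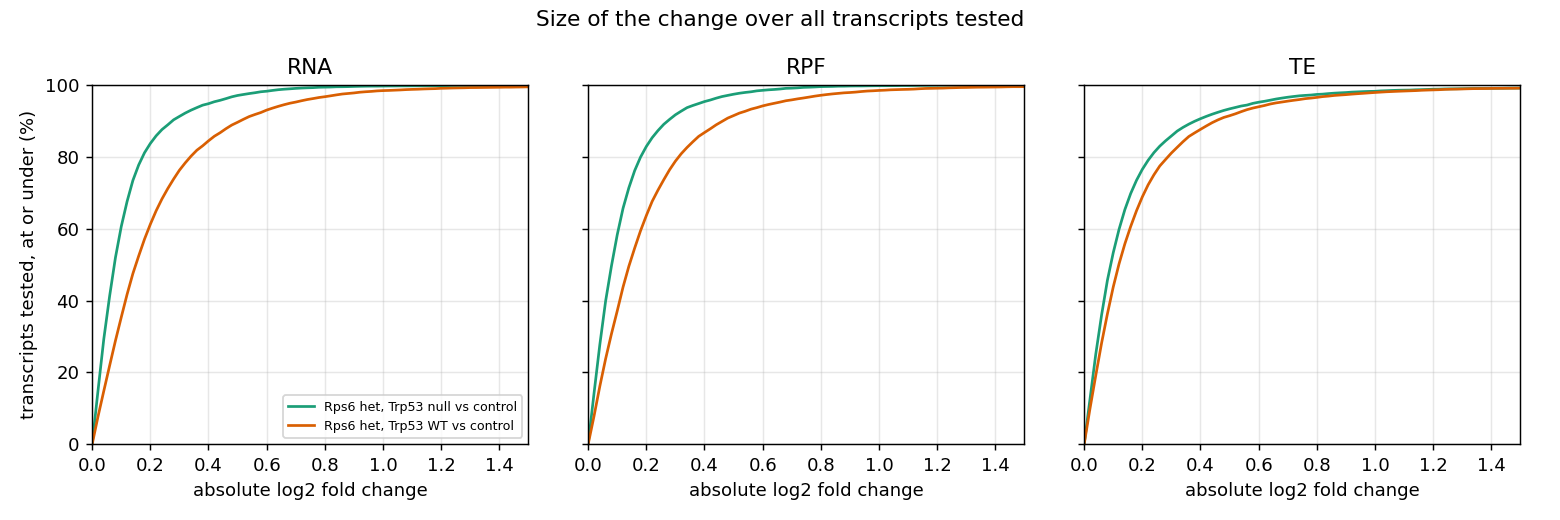
The share of transcripts tested (y axis, percent) whose absolute log2 fold change against control is at or under the value on the x axis, for RNA, RPF and TE. Green lines are double mutant limbs and orange lines Rps6 het, Trp53 WT limbs, both against the same 3 controls. The sets of transcripts differ between the kinds, with 14411 in RNA, 12147 in RPF and 14080 in TE. At 0.2 on the x axis, the RNA lines stand at 83.71% and 61.22%, the RPF lines at 82.87% and 63.64%, and the TE lines at 76.5% and 68.84%.

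Of the 9 RNAs that changed by more than 1, 6 were under 5 CPM in controls, and their levels in the reference genotypes followed different orders. The transcript with the largest rise among the calls stood at 2.20 CPM in controls (2.04 to 2.35) and at 25.7 CPM in double mutants (17.9 to 30.8). In Rps6 WT, Trp53 null limbs it was at 34.2 CPM and in Rps6 het, Trp53 WT limbs at 4.14 CPM, so both Trp53 null genotypes were the high ones. It had no RPF count in any of the 12 RPF libraries. One fallen transcript went from 76.0 CPM in controls (72.9 to 77.7) to 33.1 CPM in double mutants (30.8 to 37.6). Here Rps6 het, Trp53 WT limbs were at 43.5 CPM and Rps6 WT, Trp53 null limbs at 69.4 CPM, so both Rps6 het genotypes were the low ones. Another fell from 25.5 CPM (24.7 to 26.5) to 10.7 CPM (8.83 to 14.4), with 11.3 CPM in Rps6 WT, Trp53 null limbs and 19.2 CPM in Rps6 het, Trp53 WT limbs.

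A transcript that fell from 3.40 CPM (2.97 to 4.18) to 0.0472 CPM (0 to 0.101) ended below the level of 3 counts, and no fold is given for it. It was also near 0 in Rps6 het, Trp53 WT limbs, at 0.0665 CPM, and ranged from 0.0931 to 3.91 CPM among the 3 Rps6 WT, Trp53 null pools. The pools of that genotype thus differed widely.

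Among the smaller RNA changes, 1 transcript lay on opposite sides of control in the single and the double mutant. It stood at 48.8 CPM in controls (47.1 to 50.1) and fell to 38.2 CPM in double mutants (36.4 to 39.4), beside 34.7 CPM in Rps6 WT, Trp53 null limbs (33.6 to 36.0). In Rps6 het, Trp53 WT limbs it was at 445.4 CPM (423 to 478.2). Its footprints were at 6.93 CPM in controls, 4.59 CPM in double mutants and 58.3 CPM in Rps6 het, Trp53 WT limbs. The footprints of Rps6 WT, Trp53 null limbs, at 6.18 CPM (5.55 to 6.63), overlapped those of controls (6.54 to 7.30), and double mutants (4.29 to 4.74) were under both. These transcripts were picked after their values were seen.

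More transcripts passed the threshold in footprints than in RNA, and the called changes were smaller. Of 12147 transcripts tested, 204 passed the threshold (1.68%), 126 higher (1.04%) and 78 lower (0.642%). The unadjusted p was under 0.05 for 1662, beside 1462 of 14411 in RNA. For 200 of the 204, the control and double mutant libraries did not overlap, which held for 2086 of all transcripts tested (17.2%). Their median absolute change was 0.25 on the log2 scale and the smallest 0.14. Only 11 of the 204 changed by more than 1 (3 higher, 8 lower), 183 changed by under 0.5, and 160 had a 95% interval wholly within 0.5. Over all transcripts the median absolute change was 0.08 and the 95th percentile 0.39, close to the RNA values. Against the same controls, Rps6 het, Trp53 WT limbs had 3019 transcripts past the threshold in RPF (24.9%), 1598 higher and 1421 lower. The direct comparison of double mutant with Rps6 het, Trp53 WT limbs gave 1831 (15.1%).

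The footprint changes were found mainly among abundant transcripts. From the lowest to the highest of 4 equal classes of RPF level, 7, 22, 36 and 139 transcripts were called, which is 0.23%, 0.724%, 1.19% and 4.58% of each class. The median standard error fell over these classes from 0.236 to 0.107, 0.0671 and 0.0464. In RNA, the shares called were 0.111%, 0.194%, 0.167% and 0.25%. The 95% interval of the RPF change lay within 0.5 for 9527 transcripts (78.43%) and within 1 for 11542 (95.02%). In the highest class of RPF level 99.8% lay within 0.5 and in the lowest 22.9%.

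Without double mutant replicate 3 the RPF count was 182 (112 higher, 70 lower), beside 117 in RNA without the same replicate. The gap between the counts of the 2 kinds thus depended largely on that replicate. It was 124 and 117 without double mutant replicate 1 and 2, and 214, 129 and 122 without control replicate 1, 2 and 3.

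For reference, the loss of Trp53 with both Rps6 copies kept (Rps6 WT, Trp53 null against control) gave 17 RNA calls (0.118%) and 9 RPF calls (0.0741%). Rps6 het against Rps6 WT within the Trp53 null background gave 10 RNA calls (0.0694%) and 110 RPF calls (0.906%). Both comparisons share libraries with that of double mutant against control, so no overlap between them is given.

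RNA and footprints of double mutants were also read side by side in the 12116 transcripts tested in both. Of these, 14 were called in both kinds, all 14 in the same direction, 190 in RPF but not in RNA, and 7 in RNA but not in RPF, while 5 RNA calls were not tested in RPF. This split was not repeated without double mutant replicate 3, whose removal moved the RNA calls from 26 to 117. A call in a single kind does not show that the kinds differ, which is what the TE test addresses. The 126 transcripts with more footprints had a median RPF change of 0.25 and a median RNA change of 0.09. Their RNA change was above 0 in 103, of which 5 were called, and the 95% interval of the RNA change lay within 0.5 in 111. The 78 transcripts with fewer footprints had median changes of -0.26 in RPF and -0.11 in RNA, the RNA change was below 0 in all but 7, and 9 were called lower in RNA. Over all 12116 transcripts, 6059 RNA changes were above 0. The RNA and RPF libraries of a replicate come from the same pools, so deviations of a pool enter both.

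**Figure D2:**
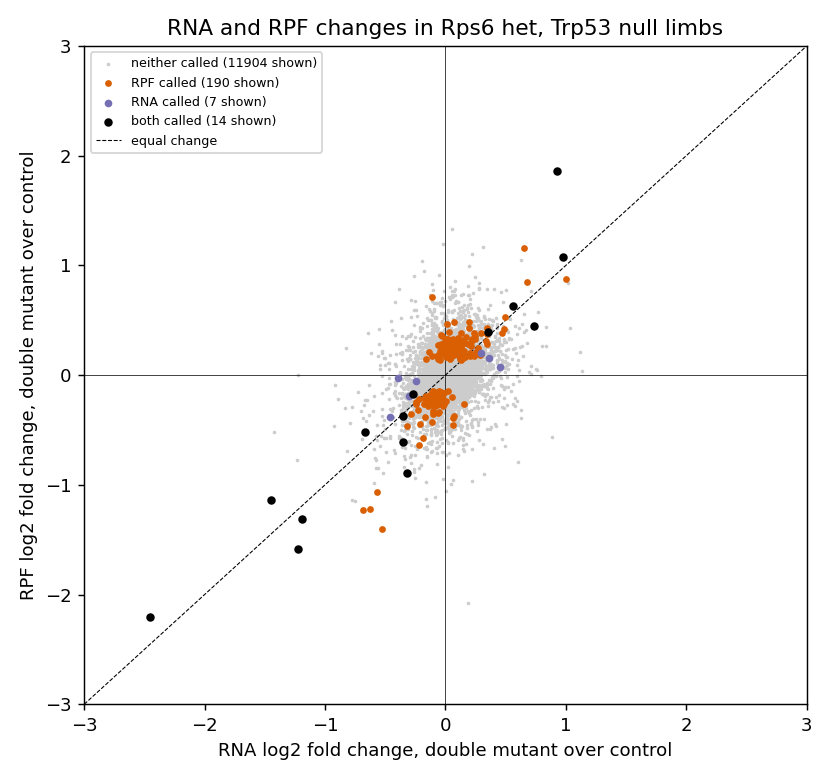
Each point is 1 of 12116 transcripts, with its RNA log2 fold change (x axis) and RPF log2 fold change (y axis), double mutant over control; 1 transcript outside the axes is not drawn. The 14 transcripts called in both kinds (black) have the same sign in both, and most of the 190 called in RPF alone (orange) lie at RPF changes under 0.5 in either direction.

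The strongest calls in each direction show how the genotypes differed in single pools. ENSMUST00000001672.11 had the smallest p in RNA and the second smallest in RPF. Its RNA level was 66.55, 64.73 and 62.7 CPM in control replicates 1 to 3 and 120, 125.4 and 123 CPM in double mutant replicates 1 to 3. Its RPF level was 16.32, 14.95 and 15.53 CPM in controls and 51.48, 65.74 and 53.79 CPM in double mutants. The groups did not overlap in either kind, and RPF rose more than RNA. RNA rose by 0.93 on the log2 scale (SE 0.0461, edgeR adjusted p = 1.47e-08), RPF by 1.86 (SE 0.0906, adjusted p = 1.19e-13) and TE by 0.93 (SE 0.108, adjusted p = 6.41e-05).

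Both Rps6 het genotypes were high for this transcript, and both Rps6 WT genotypes low. In Rps6 het, Trp53 WT limbs the level of ENSMUST00000001672.11 was 133.6 ± 3.97 CPM in RNA and 61.65 ± 3.22 CPM in RPF (SD, n = 3). In Rps6 WT, Trp53 null limbs it was 61.37 ± 3.16 and 17.61 ± 2.32 CPM. Double mutants, at 122.8 ± 2.73 and 57.0 ± 7.65 CPM, differed from Rps6 het, Trp53 WT limbs by -0.12 in RNA (95% interval -0.22 to -0.03, adjusted p = 0.0844) and by -0.13 in RPF (interval -0.28 to 0.03, adjusted p = 0.3), both by edgeR. Neither passed the threshold. Controls lay 1.05 and 1.98 below Rps6 het, Trp53 WT limbs in RNA and RPF, far outside both intervals.

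ENSMUST00000166123.8 rose by less and in both kinds alike. Its RNA level was 382.9, 368.3 and 358.3 CPM in controls and 467.2, 496.8 and 457.5 CPM in double mutants. Its RPF level was 206.5, 194.3 and 201.1 CPM in controls and 252, 277.6 and 260.6 CPM in double mutants. No double mutant library reached down to a control one in either kind. The rise was 0.36 in RNA (SE 0.0455, edgeR adjusted p = 0.00129) and 0.39 in RPF (SE 0.0423, adjusted p = 2.53e-06), and the TE change was 0.03 (95% interval -0.09 to 0.16). In Rps6 het, Trp53 WT limbs its levels were 529.5 ± 17.4 CPM in RNA and 276.9 ± 8.42 CPM in RPF (SD, n = 3), above those of double mutants in RNA by edgeR (difference -0.16, adjusted p = 0.0281) and not past the threshold in RPF (-0.08, adjusted p = 0.254).

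ENSMUST00000108658.9 had the largest fall among the RPF calls. Its RNA level was 112.2, 99.57 and 100.8 CPM in controls and 21.12, 20.64 and 15.82 CPM in double mutants. Its RPF level was 499.7, 498.3 and 475.3 CPM in controls and 109.7, 104.1 and 104.7 CPM in double mutants. Every double mutant library stood far below every control. The change was -2.45 in RNA (SE 0.125, edgeR adjusted p = 1.47e-08) and -2.21 in RPF (SE 0.0397, adjusted p = 3.45e-24), with a TE change of 0.24 that did not pass the threshold (95% interval -0.03 to 0.52). Rps6 WT, Trp53 null limbs were as low, at 21.89 ± 3.13 CPM in RNA and 111.2 ± 2.40 CPM in RPF, whereas Rps6 het, Trp53 WT limbs were at 150.3 ± 24.1 and 579.5 ± 4.73 CPM (SD, n = 3). This level followed the Trp53 genotype in all 12 RNA and all 12 RPF libraries, double mutant replicate 3 included.

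ENSMUST00000102814.4, an abundant transcript, followed the Rps6 genotype. Its RNA level was 1512, 1511 and 1528 CPM in controls and 924.2, 982.7 and 959.9 CPM in double mutants. Its RPF level was 1736, 1732 and 1665 CPM in controls and 1179, 1208 and 1189 CPM in double mutants. The groups stood well apart in both kinds. The change was -0.67 in RNA (SE 0.043, edgeR adjusted p = 2.35e-07) and -0.52 in RPF (SE 0.0346, adjusted p = 1.22e-10), with a TE change of 0.14 that did not pass the threshold (95% interval 0.04 to 0.25 before adjustment). Rps6 het, Trp53 WT limbs were at 1099 ± 4.75 CPM in RNA and Rps6 WT, Trp53 null limbs at 1607 ± 68.8 CPM (SD, n = 3). Double mutants were below Rps6 het, Trp53 WT limbs, by -0.20 in RNA (edgeR adjusted p = 0.00547) and -0.28 in RPF (adjusted p = 1.87e-06). In each of the 6 Rps6 het RNA libraries the level was under that of each of the 6 Rps6 WT ones, so double mutant replicate 3, at 959.9 CPM, sat with its label.

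**Figure D3:**
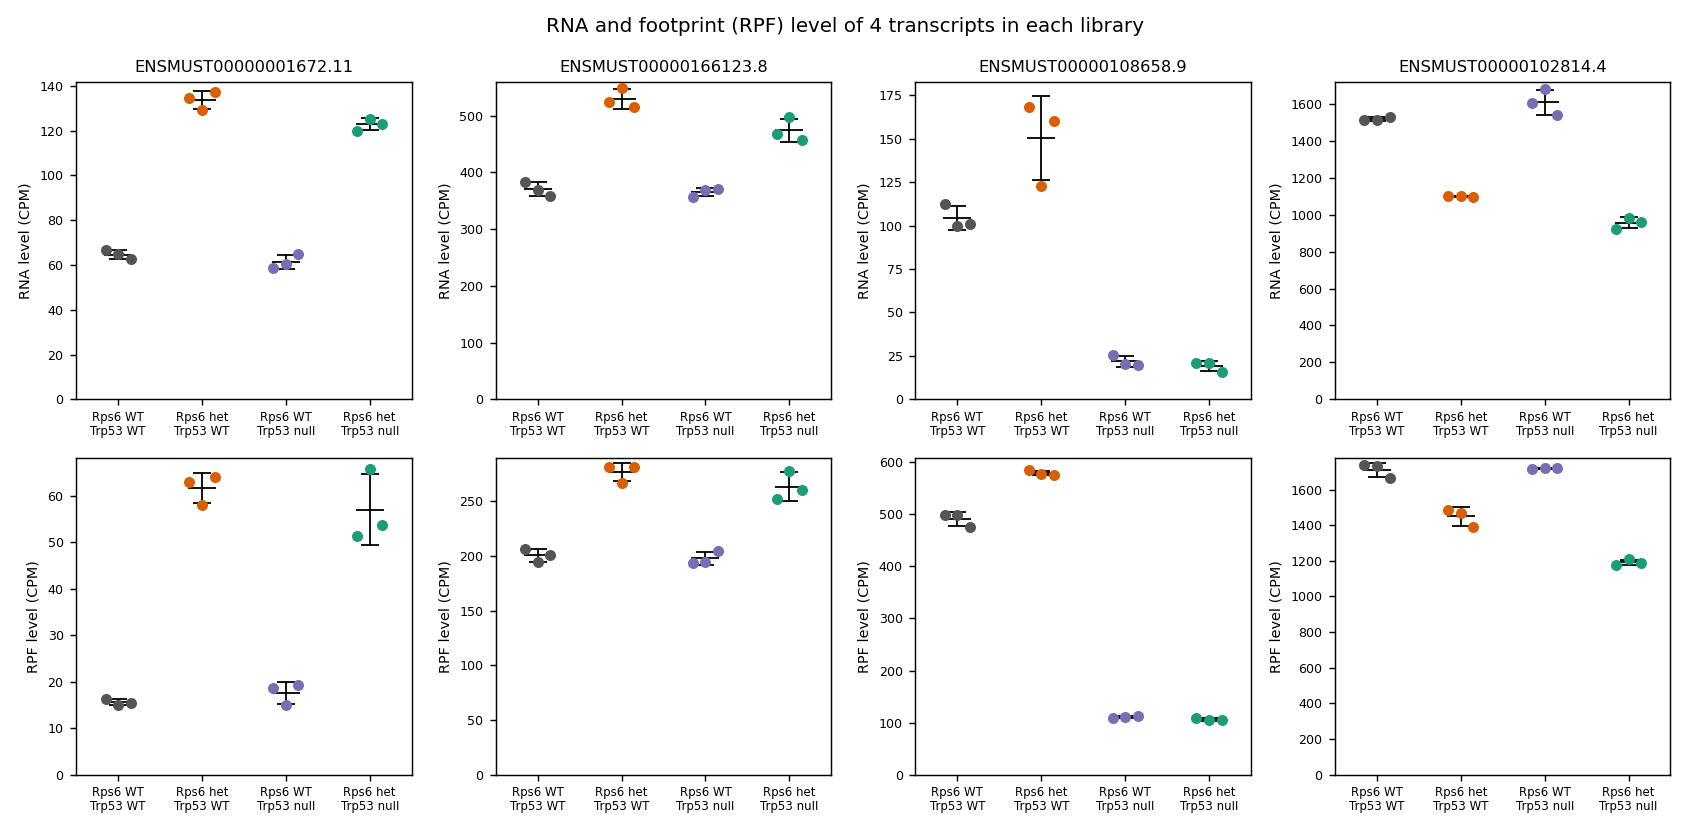
RNA level (top) and RPF level (bottom) of the 4 transcripts in CPM (y axes from 0) in each of the 4 genotypes (x axis); points are the 3 libraries of a group, and bars the mean and SD. ENSMUST00000001672.11, ENSMUST00000166123.8 and ENSMUST00000102814.4 separate by Rps6 genotype, with double mutants at 122.8, 473.8 and 955.6 CPM in RNA, and ENSMUST00000108658.9 separates by Trp53 genotype.

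Translational efficiency differed in 4 of 14080 transcripts (0.0284%), all 4 higher in double mutants, and 578 had an unadjusted p under 0.05. With each pool as a block, which pairs the RNA and RPF library of a pool, 23 passed (0.163%), 22 higher (0.156%) and 1 lower (0.0071%), among them the same 4, and 862 had an unadjusted p under 0.05. Against the same controls, Rps6 het, Trp53 WT limbs had 165 (1.17%; 70 higher, 95 lower), and 393 with the block (2.79%; 119 higher, 274 lower). TE had the largest median standard error of the 3 measures, each over its own set of transcripts tested. Of the 14080 tested in TE, 12116 were tested in RNA and RPF as well, and the sets were not matched. The 95% interval lay within 0.5 for 8743 transcripts (62.1%) and within 1 for 11197 (79.52%), with a median standard error of 0.129 against 0.0808 in RNA and 0.0836 in RPF.

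The TE counts also rested on single pools. Without double mutant replicate 3 the count was 2, and with the pool block 76 (29 higher, 47 lower), so the excess of higher over lower calls with the block was not seen without that pool. Without control replicate 1, 2 or 3 the count was 1, 2 or 1, and with the block 11, 5 or 2. Without double mutant replicate 1 or 2 it was 5 or 1, and with the block 15 or 8.

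In 3 of the 4 TE calls, footprints rose while the RNA change was small. The ratio of RPF to RNA level of ENSMUST00000001672.11, described above, was 0.245, 0.231 and 0.248 in controls and 0.429, 0.524 and 0.437 in double mutants. The second call by p had ratios of 0.309, 0.345 and 0.31 in controls and 0.512, 0.682 and 0.523 in double mutants. Its RNA level was 37.2 CPM in controls (37.2 to 37.3) and 34.3 CPM in double mutants (30.7 to 39.0), a change of -0.12 (edgeR adjusted p = 0.66), and its RPF level rose from 11.97 to 19.43 CPM, by 0.71 (adjusted p = 0.000103).

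The third call by p had ratios of 0.797, 0.834 and 0.774 in controls and 0.963, 1.11 and 1.12 in double mutants. Its RPF level rose from 282.5 to 364.2 CPM, by 0.37 (edgeR adjusted p = 3.88e-05), beside RNA levels of 352.5 and 342.8 CPM. For the fourth call the ratios were 0.388, 0.357 and 0.381 in controls and 0.509, 0.487 and 0.48 in double mutants, with RNA levels of 136.3 and 133.6 CPM. For each of the 4, the lowest double mutant ratio was above the highest control ratio. In Rps6 WT, Trp53 null limbs the ratios, in the same order, were 0.247 to 0.316, 0.379 to 0.412, 0.74 to 0.805 and 0.367 to 0.408. The range 0.379 to 0.412 lay wholly above that of its controls, and the remaining ranges overlapped theirs. Each of these ranges lay below that of the double mutant pools. The ratios of Rps6 het, Trp53 WT limbs were 0.448 to 0.468 for the first call and 0.527 to 0.592 for the second, within the range of the double mutant pools. They were 1.13 to 1.26 for the third and 0.539 to 0.572 for the fourth, above those of all 3 double mutant pools.

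With the pool block, the 22 higher transcripts had a median RNA change of -0.03 and a median RPF change of 0.28. Of them, 20 were also called higher in RPF, against 1.04% of all transcripts. In RNA, 1 of the 22 was called higher and 1 lower, against 0.0694% and 0.111% of all. A choice by TE favours high RPF and low RNA changes in the same libraries, so these values follow in part from the choice.

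A list chosen on other libraries gave a further view. Transcripts were taken that differed between Rps6 het, Trp53 WT and Rps6 WT, Trp53 null limbs, a contrast that shares no library with double mutant against control. It differs in both genes, so a change that depends on Trp53 alone enters it with the opposite sign, and the size of the change that chose the list is inflated by the choice. The RNA list held 2727 transcripts (18.9%), 1472 higher (10.2%) and 1255 lower (8.71%) in Rps6 het, Trp53 WT limbs. The higher ones differed by a median of 0.29 in the contrast that chose them and by a median of 0.04 between double mutant and control, and the lower ones by -0.33 and -0.06. These double mutant medians were 14.2% and 19.1% of those that chose the lists, beside a median of 0.00 over all transcripts tested. Of the higher ones 1333 (90.6%) and of the lower ones 1103 (87.9%) had a 95% interval within 0.5, against 76.5% over all. All transcripts include the lowest level class, with 18.8% within 0.5, and the lists were not matched for level. The higher shares thus do not show a closer return to control.

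The corresponding RPF list held 2765 transcripts (22.8%), 1490 higher (12.3%) and the other 1275 lower. Their medians were 0.29 and -0.31 in the contrast that chose them and 0.07 and -0.07 in double mutant against control, which is 24.4% and 21.4%. In this list 1325 (88.9%) and 1118 (87.7%) had intervals within 0.5. Among transcripts that differed by over 1 in the choosing contrast, the medians of the higher ones were near 0 in double mutants and those of the lower ones were larger than over the whole lower lists. In RNA the 96 higher ones went from a median of 1.48 to -0.07 and the 82 lower ones from -1.29 to -0.17, and in RPF the 77 higher ones from 1.37 to -0.02 and the 77 lower ones from -1.29 to -0.19.

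Calls of the double mutant fell differently on the RNA and the RPF list. Of the 26 RNA calls, 12 were on the RNA list with the same direction and 10 with the opposite direction, 22 of the 2727 in all (0.807%, against 0.18% of all transcripts tested). Of the 204 RPF calls, 135 were on the RPF list with the same direction and 16 with the opposite direction, 151 being 5.46% of the list against 1.68% of all. Both contrasts took their spread from the same fit, and RPF calls were more frequent at high level (4.58% of the highest class). The lists were not matched for level or spread, so the excess on them is not separated from either. Of the 126 transcripts with more footprints in double mutants, 97 were called higher and 6 lower in the RPF contrast of the other 2 genotypes. Of the 78 with fewer, 38 were called lower and 10 higher. Among all 12116 transcripts tested in RNA, RPF and TE, 1486 were called higher and 1273 lower in that contrast. The 126 and the 78 were not matched to all transcripts for level, so the excess among them is not separated from it.

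The list means shifted in each double mutant pool. The mean log2 CPM of the higher RNA list, relative to the control mean, was 0.0381, 0.06 and 0.02 in double mutant replicates 1 to 3 and 0.0183, 0.00341 and -0.0217 in the controls. That of the lower RNA list was -0.0477, -0.0833 and -0.049 against -0.0364, -0.00488 and 0.0412. In RPF the higher list was at 0.0705, 0.0852 and 0.0525 against 0.0147, 0.00856 and -0.0232, and the lower list at -0.0595, -0.106 and -0.0462 against -0.0236, -0.00811 and 0.0318. In all 4 lists no double mutant pool overlapped a control pool, and the mean shift was smaller than the range over control pools in both RNA lists and larger in both RPF lists. Replicate 3 lay nearest the controls in 3 of the 4 lists. The median of the RNA list, with lower members turned in sign, was 0.05 with all libraries and 0.06 without double mutant replicate 3, and in RPF 0.07 and 0.08.

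The TE list showed unequal remainders in its 2 directions. It held 171 transcripts (1.21%), 82 with higher (0.582%) and 89 with lower TE (0.632%) in Rps6 het, Trp53 WT than in Rps6 WT, Trp53 null limbs. The 82 had a median TE change of 0.42 in the contrast that chose them and of 0.19 between double mutant and control, which is 45.4%. Their change was above 0 in 76 of the 82 and 3 were called. Over all transcripts tested the median was -0.01, 48.3% were above 0 and 0.0284% were called. The 89 had medians of -0.34 and -0.02, which is 5.55%, and 0 were called. With the pool block the list held 307 transcripts (2.18%): 135 higher ones (0.959%) had medians of 0.37 and 0.16 (43.3%), with 22 called, and 172 lower ones (1.22%) -0.32 and -0.03 (9.91%), with 1 called, against 0.163% called over all transcripts. The choosing contrast and the double mutant contrast took their spread from the same fit. The TE lists were not matched to all transcripts for level or spread, so the excess of calls on them is not separated from either. The difference between the directions was not tested.

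**Figure D4:**
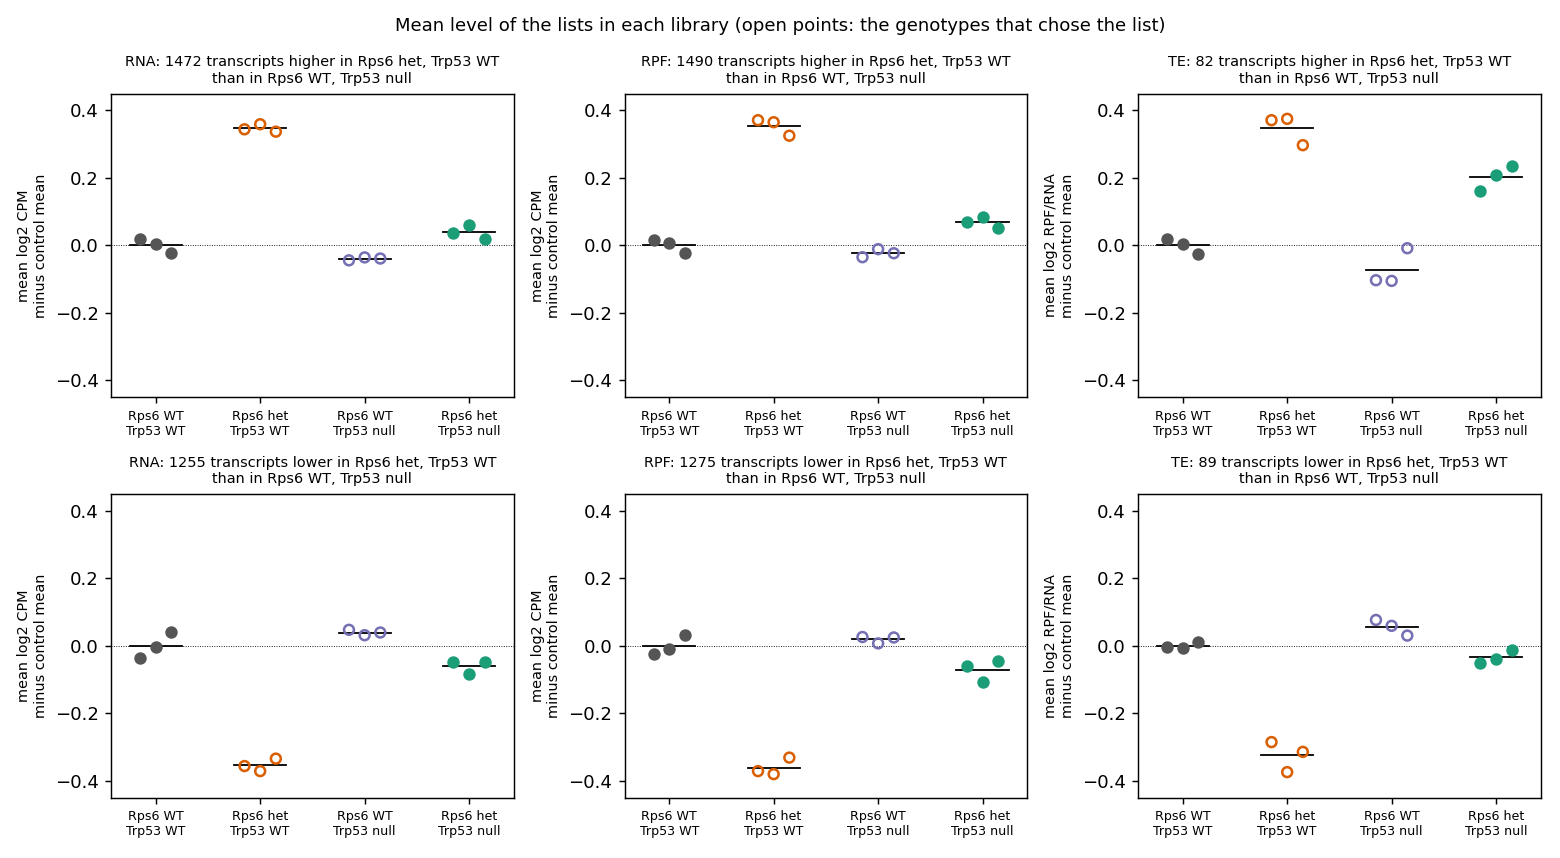
Mean level of each list in each library minus the control mean (y axes, log2 CPM for RNA and RPF and log2 of RPF over RNA for TE), by genotype (x axis); points are the 3 libraries of a genotype, bars their means, and open points the genotypes that chose the list. Double mutant pools (green) lie near the controls (grey) in the RNA, RPF and lower TE lists, and at 0.162 to 0.234 in the higher TE list.

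The mean TE of the 82 higher transcripts, relative to the control mean, was 0.162, 0.209 and 0.234 in double mutant replicates 1 to 3 and 0.0189, 0.00532 and -0.0242 in controls, a gap several times the spread among controls. That of the 89 lower transcripts was -0.0494, -0.0375 and -0.0124 against -0.00477, -0.00718 and 0.012. Each double mutant pool lay below each control there, by a smaller gap than in the higher list. Without double mutant replicate 3 the median of the higher list was 0.17 and that of the lower list -0.05.

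RNA and footprints behind the TE lists were also read apart. The lists were chosen on RPF change minus RNA change, so unlike changes of the 2 kinds in the choosing contrast follow in part from the choice. The 82 higher transcripts had median changes in the choosing contrast of -0.04 in RNA and 0.41 in RPF, and between double mutant and control of 0.01 in RNA and 0.21 in RPF. In double mutants 50 of them were called higher and 2 lower in RPF, against 1.04% and 0.642% of all transcripts. The 82 were not matched to all transcripts for level or spread, so this excess is not separated from either. The 89 lower transcripts had median changes in the choosing contrast of 0.27 in RNA, where 68 were called higher and 1 lower, and of -0.06 in RPF, where 25 were called lower and 6 higher. Between double mutant and control their medians were -0.01 in RNA and -0.03 in RPF, with 3 called lower in RPF and 1 in RNA.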

How the data were processed

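The authors deposited 1 table of raw read counts with 21960 rows, each a versioned transcript ID, of which 238 were 0 in all libraries. Its name marks footprints with coding sequences and RNA with the word total, which does not say over which part of a transcript RNA was counted. The submitters' processing notes name Bowtie2, UMI-tools, GRCm38 and mm10; the counter, annotation and filters are not given in the sources used here. RNA and footprint libraries of a pool come from the same lysates, per the labels' protocols. Deviations from the group mean of the RNA and RPF library of a pool correlated in all 12 pools (r 0.115 to 0.378). Libraries of unlike pools were not compared in this way, so the pairing rests on the protocols.

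edgeR 4.0.16 (R 4.3.3) fitted RNA and RPF apart over 4 genotypes (12 libraries each), and TE in 1 model over 24 libraries. Settings were TMM scaling within a kind, filterByExpr (minimum count 10, minimum total 15), the quasi-likelihood test and Benjamini-Hochberg adjustment over all transcripts tested, with 0.05 as threshold. Levels are CPM on TMM-scaled totals, and list means add 0.5 CPM before the log. Standard errors and 95% intervals come from the F statistic. DESeq2 1.42.0, limma-voom 3.58.1, other scalings, filters, blocks and left-out replicates were alternatives. Replicates of a group differed by more than counting noise (chi-square per degree of freedom 1.92 to 17.1), so each counts as 1. Pools hold separate embryos, but litters are not labelled.

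The lists, bounds and members were chosen with earlier results of these data known. Named by ID are, in each direction, the 2 called transcripts with the smallest p over RNA, RPF and TE whose replicates do not overlap between groups. Other single transcripts were chosen after their values were seen. Planned checks of Rps6, Trp53, their neighbours, gene lists and markers were not run, since IDs were not paired with names. The scripts were tested on simulated data.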

Additional observations from a re-analysis of the deposited data

Results flagged for a closer look

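For 2 of the 4 named transcripts, the effect of losing an Rps6 copy differed between the Trp53 backgrounds by a test of the difference itself (edgeR interaction term over all transcripts tested). For ENSMUST00000108658.9, the Rps6 change with Trp53 minus that without was 0.74 on the log2 scale in RNA (adjusted p = 0.0188) and 0.31 in RPF (adjusted p = 0.000857). With Trp53 the Rps6 change was 0.53 in RNA and 0.24 in RPF, and without it -0.21 and -0.07. For ENSMUST00000102814.4, the difference was 0.28 in RNA (adjusted p = 0.0102) and 0.29 in RPF (adjusted p = 0.000399). Its Rps6 change was -0.47 in RNA and -0.24 in RPF with Trp53, and -0.75 and -0.53 without, so the fall was larger in the Trp53 null background. In each of the 4 tests the 3 libraries of each genotype entered. Whether these 2 transcripts come from Rps6 or Trp53 themselves was not checked, since IDs were not paired with names.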

How the results depend on the processing

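The named transcripts kept their direction and side of the threshold in RNA, RPF and TE under every alternative that gave a value. DESeq2 gave no adjusted p for the RPF and TE of ENSMUST00000001672.11 and the TE of ENSMUST00000108658.9. Counts of calls moved more. For RNA of double mutant against control (26), no filter on low counts gave 70, DESeq2 69, and leaving out a replicate 10 to 117. For RPF (204), no filter gave 387 and leaving out a replicate 117 to 214. For TE (4), no filter gave 20, DESeq2 38, limma-voom 10, and leaving out a pool 1 to 5. For Rps6 het, Trp53 WT against control, leaving out a control gave 2211 to 2960 calls in RNA and 58 to 108 in TE, and no filter gave 282 in TE. The median of the higher TE list, added after the data were seen, was 0.165 to 0.229 without a pool and that of the lower -0.0486 to -0.0111. Deviations of same-numbered replicates of double mutant and control correlated weakly (r -0.00372 to 0.138 in RNA and 0.0171 to 0.1 in RPF). For unlike numbers r was -0.157 to 0.0739 in RNA and -0.0572 to 0.0352 in RPF. Whether a number stands for a shared batch was not tested. With the replicate number as a block the calls were 47 in RNA, 271 in RPF and 11 in TE, and 263 in TE for Rps6 het, Trp53 WT. With the replicate block by pool, TE gave 23 calls, and with a pool left out as well 11, 5 and 2 (control replicates 1 to 3) and 15, 8 and 76 (double mutant replicates 1 to 3). Without a replicate, 10340 to 10780 transcripts lay within 0.5 in RNA, 9004 to 9252 in RPF and 8059 to 8401 in TE, and the signed list median was 0.0353 to 0.0667 in RNA and 0.0549 to 0.0785 in RPF. The cause of these movements was not tested. With 3 pools a group, changes of weakly expressed transcripts are limited by depth.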
